A study of Rattus norvegicus with 12 samples.

Results

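PACAP38 over control at 10 min was read on 2 of the 12 arrays of the series, chosen by titles that name PC-12 and 10min. PC12 is a rat pheochromocytoma line, a tumour of adrenal chromaffin cells, here RCB0009 grown with fetal bovine serum and horse serum on dishes coated with Cellmatrix Type IV. The treated cells received PACAP38 at 1e-07 M and are labelled PACAP-differentiated at every time, the earliest included, and the cells labelled Control at 10min are the comparison. Total RNA of n = 6 per group was pooled before labelling, so the 10 min comparison is 1 pair of pools of 1 cell line. The 2 arrays are a dye swap of that pair: PACAP38 RNA was in Cy5 and control RNA in Cy3 on one, and the reverse on the other. They are 1 replicate, no test between treated and control cells was possible, and each counted probe is given with its folds or intensities on both arrays in place of an error. Most other folds are the geometric mean of both arrays. The treatment protocol describes a multiwell plate and the design text a culture dish for the RNA, and which of these held the cells on these arrays is not settled by the labels.

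PACAP38 is a neuropeptide that acts on the receptor Adcyap1r1 (PAC1), which couples to adenylyl cyclase and phospholipase C and so raises cAMP and calcium and activates MAP kinase. In PC12 cells it is known to drive neurite outgrowth. Immediate early genes are the genes that such signals switch on without new protein synthesis, because the factors bound to their promoters, CREB at cAMP response elements and SRF with its partners at CArG boxes, are already present. Many of them encode transcription factors of the AP-1, EGR and NR4A families, which act on later genes.

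Of 40984 probes with an unflagged spot on both arrays, 27 were higher with PACAP38, a share of 0.0659%, and 0 were lower, a share of 0%. A probe was counted when both arrays gave a PACAP38/control ratio of 2 or more, or both one of 0.5 or less, each with a spot p-value from the scanner software below 0.01. That p-value rests on the software's error models for a spot and not on replicate cultures, so the count describes these pools. In bulk RNA, fewer cells of a kind and less RNA per cell cannot be told apart. The smaller fold of a counted probe was at least 2.03, and the next measured probe outside the limit, of Zfand2a, had 1.97 as its smaller fold. At a fold of 1.5 the counts were 38 higher (0.0927%) and 3 lower (0.00732%). With normexp background correction, which adds an offset of 50 to every signal, 8 of the 27 were counted, those of Fos, Egr1, A_44_P707354, Btg2, Ier2, XM_213050, Junb and Jun, and the folds of all 27 lay between 1.14 and 6.58 after loess.

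**Figure D1:**
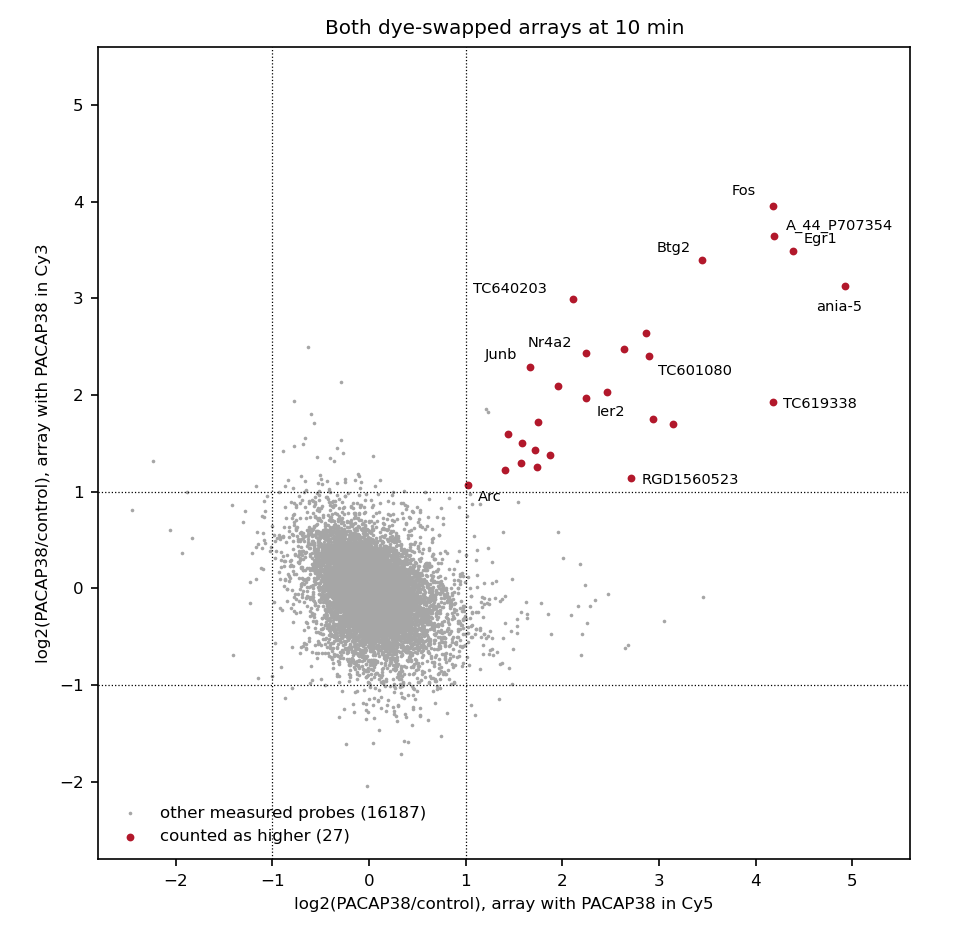
Each point is a measured probe, with its log2 PACAP38/control ratio on the array with PACAP38 in Cy5 on the x axis and on the array with PACAP38 in Cy3 on the y axis. Dotted lines mark a 2-fold difference. The 27 counted probes (red) lie in the upper right, from Arc at about 2-fold on both arrays to Fos and ania-5, with uncounted probes such as Egr4 and Zfand2a among or beside them, and the grey cloud slopes downwards.

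Apart from these probes the arrays of the pair ran against each other. A probe was called measured when the same RNA was well above background on both arrays, which held for 16214 probes and 12414 named genes or transcripts. All 27 counted probes were measured, 8 of them through the PACAP38 RNA alone. Over the measured probes that were not counted, the turned log2 ratios of the 2 arrays correlated at r = -0.35, a correlation across probes of 1 pair of pools, and over all 40984 tested probes, most of them dim, at r = -0.66. There were 230 tested probes that passed both limits in opposite directions, 6 of them measured. Each array's ratios over measured probes had an SD of 0.32 on the log2 scale, and their mean over both arrays had an SD of 0.20. The folds of 21 of the 27 counted probes were larger on the array with PACAP38 in Cy5, where 52.2% of measured probes had the larger ratio. On single arrays, 425 and 335 probes were higher by the same limits, so the count of 27 depends on the second dye orientation. No spot was saturated, and between 40.9% and 42.9% of spots were well above background in each channel.

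All 11 chromaffin markers on the array were measured, with mean control intensities of 68693 for Ddc, 66489 for Th and 35326 for Slc18a1, which make and store catecholamines. Dbh, which turns dopamine into noradrenaline, was measured at a mean control intensity of 310, and Gata3, a transcription factor of the lineage, at 38.8. Of 19 markers of other cells, 4 were measured, at control intensities from 39.3 for Col1a2 to 103 for Cd68. None of the 11 chromaffin markers was counted, and Chgb, a granin of the secretory granules, had the lowest fold of them at 0.85.

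The AP-1 subunits Fos, Junb and Jun were among the counted genes. Fos, which pairs with Jun proteins to bind AP-1 sites, had a probe at chr6:109561099-109561158 with processed intensities of 60.2 in control and 1094 with PACAP38 on the array with PACAP38 in Cy5, and of 55.5 and 863 on the other. Both treated values lay far above both control values, and the folds of 18.2 and 15.5 gave a geometric mean of 16.8. With normexp and loess it was 3.32, below the 6.58 of Btg2 and the 6.57 of Egr1. With the 5 min ratio of the same dye subtracted on the log scale it was 8.12, but neither RNA of Fos was well above background at 5 min. Junb (chr19:24832781-24832840) went from 678 to 2158 and from 473 to 2317, folds of 3.18 and 4.89 with a mean of 3.95. Jun (chr5:115358764-115358823) was read by 9 unflagged spots on each array, whose single folds lay between 2.53 and 3.18, and its folds of 2.99 and 2.84 had a mean of 2.91. The brightest probes of Jund, Fosl1 and Fosb, the other measured subunits, had folds of 1.07, 1.17 and 1.04, and the arrays of Fosb disagreed (1.65 and 0.66). Fosl2 was not measured.

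Egr1, a zinc finger factor and a classic first target of growth factor and cAMP signals, had a fold of 15.3 at chr18:27347173-27347232. Its control intensities were 139 and 290 and its PACAP38 intensities 2915 and 3248, so that the arrays differed more in the control channel than in the treated one. The spots of this probe ranged from 16.9-fold to 35.8-fold on the array with PACAP38 in Cy5 (10 spots) and from 10.5-fold to 12.3-fold on the other (8 spots). Egr4 was also higher on both arrays, 2.35-fold and 3.54-fold, but its spot p-value missed the limit on the first and its control RNA was well above background on only the second. Nab1, a corepressor of EGR proteins, had a fold of 1.12. Egr2, Egr3 and Nab2 were not measured.

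Both measured orphan nuclear receptors of the NR4A family were counted. Nr4a2 (chr3:38867021-38867080) had control intensities of 43.0 and 37.8 and PACAP38 intensities of 204 and 205, a fold of 5.07. Nr4a1 (chr7:140020442-140020501) went from 451 to 1343 and from 376 to 927, a fold of 2.71. Nr4a3 was not measured. Klf4 (chr5:73446994-73447053) was the only counted gene among 9 measured Krueppel-like factors, at 2.49 (2.66 and 2.34), and the other 8 had folds between 0.89 for Klf10 and 1.23 for Klf11. A second probe, XM_213050, described in the array's annotation as similar to Klf4 and mapped to another chromosomal position, chr5:162464991-162465050 in rn4, had a fold of 4.07 (3.89 and 4.26). Its longest run of bases in common with the Klf4 probe is 6, yet which of the copies its signal came from is uncertain.

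Btg2, an antiproliferative protein that recruits deadenylases to mRNA, had a geometric mean fold of 10.7. Its probe (chr13:47027022-47027081) went from 233 to 2541 and from 330 to 3462, folds of 10.9 and 10.5 that nearly coincide. Ier2 (chr19:25160648-25160707), a small nuclear protein, had 3322 and 3664 in control and 15742 and 14369 with PACAP38, a fold of 4.31. Arc (chr7:112772025-112772084), a synaptic protein encoded by an mRNA that neurons transcribe on activity, stood nearest the limit: 6361 to 12899 and 5826 to 12261, a fold of 2.07 over 9 and 10 spots whose single folds lay between 1.93 and 2.28. Or2y11 (chr10:34998854-34998913), an olfactory receptor gene, had a fold of 3.09 (3.67 and 2.61) at PACAP38 intensities of 87.9 and 78.3, with control well above background on 1 array only.

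**Figure D2:**
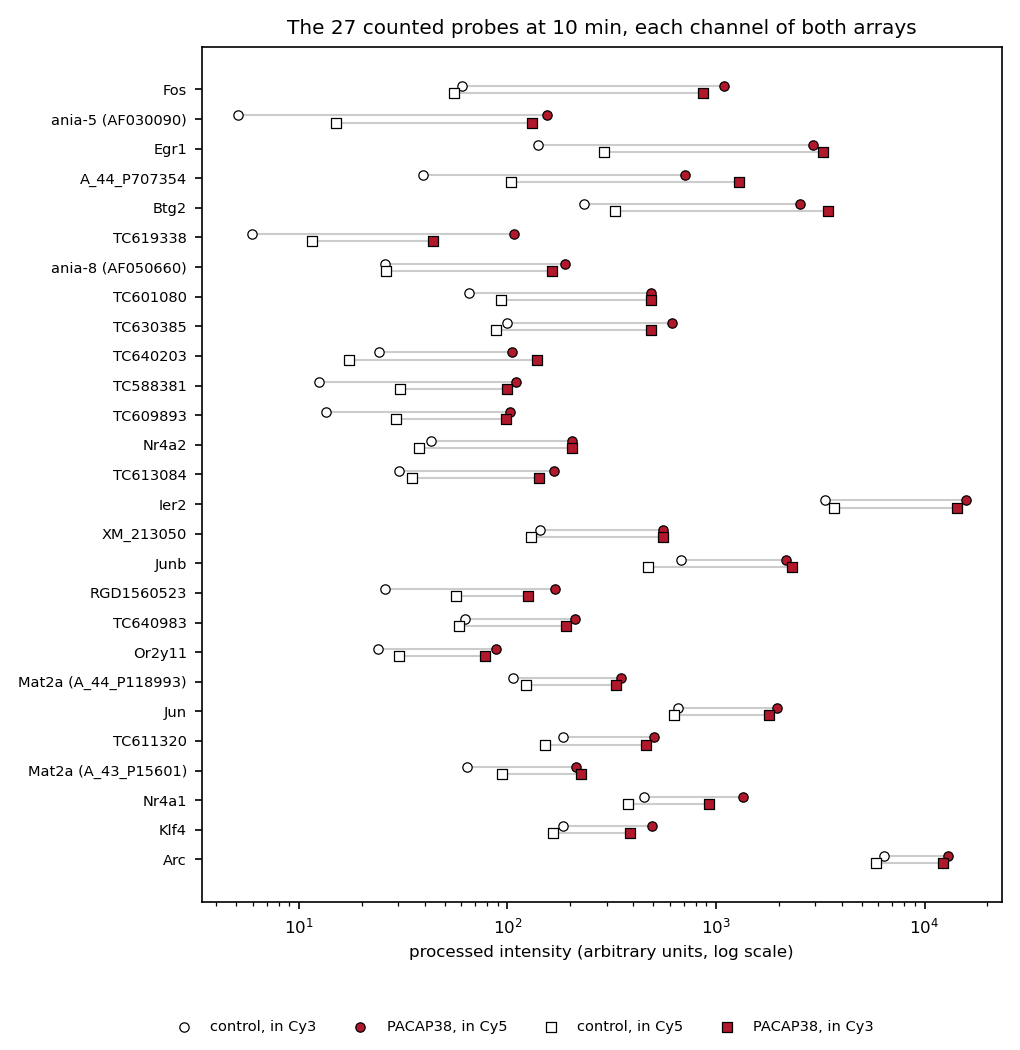
Processed intensity (x axis, log scale) of the 27 counted probes, ordered by fold, in each channel: circles for the array with PACAP38 in Cy5, squares for the array with PACAP38 in Cy3, open for control and filled for PACAP38. In every probe both filled symbols lie to the right of both open ones. Neither array had a control well above background for ania-5, TC619338, TC640203 and TC588381.

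Of the 12 counted RefSeq genes, 8 have a promoter in the RefSeq table of build GRCr8, from 250 bases before to 50 bases after the start. Fos, Jun, Arc and Or2y11 have no entry there, so their promoters were not read. Mat2a is among the 8, although its brightest probe was not counted. A full cAMP response element, TGACGTCA, read on both strands, was in the promoters of Btg2 and Ier2, 25% of the 8, and in 1.83% of all 33469 promoters of that length. The core TGACG, which the full element contains, was in those of Btg2, Egr1, Ier2, Junb, Nr4a1 and Nr4a2, 75% of the 8 against 21.2% of all promoters. Among the 8, a CArG box was in that of Egr1 alone, and in 1.64% of all promoters. The EGR site GCGTGGGCG was in none of the 8 and in 0.544% of all, and TATAAA was in 3 of the 8, Junb, Klf4 and Mat2a, and in 14.2% of all. These matches are a description of letters in a window and no test was made on them. The promoters with a full element or a CArG box are shown with these motifs in capitals (the element in Btg2 at position -201 and in Ier2 at position -66 from the start, 2 CArG boxes in Egr1 at -105 and -83).
Btg2, chr13:48087641-48087940, minus strand: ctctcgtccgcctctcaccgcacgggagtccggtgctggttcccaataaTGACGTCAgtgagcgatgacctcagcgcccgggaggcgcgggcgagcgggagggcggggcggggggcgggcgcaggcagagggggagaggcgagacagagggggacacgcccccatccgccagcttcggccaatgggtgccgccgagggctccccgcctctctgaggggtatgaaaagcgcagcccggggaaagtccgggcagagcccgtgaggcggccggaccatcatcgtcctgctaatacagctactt
Ier2, chr19:40399123-40399422, plus strand: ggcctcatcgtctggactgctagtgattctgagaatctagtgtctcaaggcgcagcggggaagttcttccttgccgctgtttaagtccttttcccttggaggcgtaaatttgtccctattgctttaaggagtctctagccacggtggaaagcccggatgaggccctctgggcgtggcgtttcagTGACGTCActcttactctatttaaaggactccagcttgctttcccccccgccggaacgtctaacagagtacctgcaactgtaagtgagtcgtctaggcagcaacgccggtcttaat
Egr1, chr18:26736828-26737127, plus strand: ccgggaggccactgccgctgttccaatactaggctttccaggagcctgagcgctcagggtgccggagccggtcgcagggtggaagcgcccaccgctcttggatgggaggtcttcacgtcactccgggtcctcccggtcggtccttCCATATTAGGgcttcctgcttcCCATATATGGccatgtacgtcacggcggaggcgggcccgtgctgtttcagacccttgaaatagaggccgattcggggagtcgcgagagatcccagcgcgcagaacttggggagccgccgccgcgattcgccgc

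Of the 27 counted probes 14 matched no gene of the RefSeq table by accession or symbol. Sequences are shown for some of them because no gene of that table stands for them. The array's annotation places 12 of them on rn4. The following 60-base probes, with the strand read from the order of the annotation's coordinates, are 6 of those read next to a named gene in the paragraphs after them.
A_44_P707354, chr17:62771650-62771709, plus strand: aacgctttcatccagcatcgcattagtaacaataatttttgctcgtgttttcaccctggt
TC601080, chr15:105357517-105357576, plus strand: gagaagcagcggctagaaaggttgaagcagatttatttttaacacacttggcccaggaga
TC619338, chr15:105356885-105356944, minus strand: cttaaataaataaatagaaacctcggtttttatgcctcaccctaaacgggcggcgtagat
TC630385, chr12:33685682-33685741, plus strand: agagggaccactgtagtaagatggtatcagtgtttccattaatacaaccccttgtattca
TC640203, chr16:1959769-1959828, plus strand: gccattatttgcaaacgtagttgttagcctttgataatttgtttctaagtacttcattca
TC588381, chr10:16941601-16941660, minus strand: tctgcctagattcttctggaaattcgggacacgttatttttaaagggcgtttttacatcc

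For 6 of the 12 placed probes the array also holds a probe of a RefSeq gene within 150 kb downstream on the same strand, namely of Crem, Mbnl2, Vps37b, Arf4, Ergic1 and Galnt11. By the nearest such probe, 0 of these 6 genes were counted at 10 min, and 1, 2 and 3 at 30, 60 and 120 min, beside 0.0659%, 0.249%, 0.871% and 1.95% of all probes counted as higher at these times. The nearest Vps37b probe had neither RNA well above background up to 30 min, so before 60 min it could not be read, and its values are taken from the next probe. Arf4, Ergic1 and Galnt11 were counted at none of the 6 times. This comparison was chosen after the values had been seen and carries no test. The distances are between probe midpoints.

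A_44_P707354 had a fold of 15.1, or 5.74 with its 5 min ratio subtracted on the log scale, at control intensities of 39.2 and 104 and PACAP38 intensities of 713 and 1293. It lies 59.0 kb before the nearest probe of Crem, a cAMP-responsive factor gene whose internal promoter makes the repressor ICER. The fold of A_44_P707354 was 2.63 at 5 min and stayed between 16.0 and 18.0 from 15 to 120 min. That of the Crem probe was 1.01 at 10 min (1.03 and 1.00), then 1.23, 3.84, 10.8 and 18.1 at 15, 30, 60 and 120 min. So the upstream probe stood at its plateau at 10 min, and the downstream probe of the same strand reached a like fold at 120 min.

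TC630385 lies 26.0 kb before the measured probe of Vps37b, a subunit of the ESCRT-I sorting complex. Its intensities were 99.3 and 618 on one array and 88.1 and 490 on the other, a fold of 5.89, and its fold was largest, at 19.7, at 30 min. The Vps37b probe had folds of 0.90, 1.01, 1.93, 8.48 and 11.1 at 10, 15, 30, 60 and 120 min, and by the last of these TC630385 was back at 4.87.

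TC601080 and TC619338 lie 632 bases apart on opposite strands. TC601080 went from 65.1 to 485 and from 92.8 to 490, a fold of 6.28, or 3.08 with its 5 min ratio subtracted on the log scale. TC619338, whose control was dim on both arrays, was at least 3.11-fold higher, with measured ratios of 18.1 and 3.81. The fold of TC601080 was at 5.41, 4.19, 2.92 and 1.96 at 15, 30, 60 and 120 min, and on the arrays with PACAP38 in Cy3 it was higher at 15 min (6.46) than at 10 min (5.28). The nearest named probe on its strand, 116 kb further on, is that of Mbnl2, an RNA-binding regulator of splicing, whose folds at 10, 60 and 120 min were 0.98, 1.19 and 3.08, the last from 3.43 and 2.77. The other measured probes of Mbnl2 on that strand were at 2.38 and 1.92 at 120 min.

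TC640203, at least 5.16-fold higher at 10 min as a mean of arrays with measured ratios of 4.34 and 7.95, lies 10.5 kb before a probe of Arf4, a small GTPase of the Golgi. That probe had folds of 1.09, 1.66 and 2.04 at 10, 60 and 120 min, and its arrays at 120 min (1.71 and 2.45) straddled the limit. A second Arf4 probe was at 1.82 at 120 min. TC588381, at least 4.27-fold higher as a mean of arrays with measured ratios of 8.85 and 3.26, lies on the strand opposite to Dusp1, a phosphatase that switches MAP kinases off, with its midpoint 2871 bases on the upstream side of the Dusp1 probe. Ergic1, 130 kb beyond TC588381 on its own strand, was at 0.57 at 10 min (0.80 and 0.40). Dusp1 itself was at 1.96 (2.09 and 1.83), just short of the limit, and at 6.81 at 15 min. TC609893 had a fold of 5.09 from arrays at 7.68 and 3.37, and on the first of these its control was not well above background. Galnt11, 30.9 kb downstream of it, was at 1.03 at 10 min and 1.40 at 120 min. TC611320 had a fold of 2.87 (2.72 and 3.03), or 1.94 with its 5 min ratio subtracted on the log scale. The 2 probes with no position, TC613084 and TC640983, had folds of 4.74 (5.50 and 4.09) and 3.33 (3.37 and 3.29) at 10 min, and of 28.1 and 3.11 at 30 min. With the 5 min ratio subtracted, their 10 min folds were 2.94 and 1.84.

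Activity and neurotransmitter-induced early genes, the ania transcripts, were represented by 3 neighbouring probes on the plus strand of chromosome 2. All are described in the annotation as 3' UTR sequence. AF030090 (ania-5, chr2:23585359-23585418) had PACAP38 intensities of 155 and 131 with a control that was dim on both arrays, and was at least 6.71-fold higher, with measured ratios of 30.4 and 8.72. AF050660 (ania-8, chr2:23588603-23588662), 3244 bases further on, went from 25.8 to 189 and from 26.2 to 164, a fold of 6.76. Its control was well above background only on the array with PACAP38 in Cy3. AF050659 (ania-7), 33.4 kb beyond ania-8, was not measured at 10 min and had folds of 8.17 at 30 min and 24.4 at 120 min. The measured Homer1 probe, whose position is not in the array's annotation, was at 1.08.

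Mat2a, which makes S-adenosylmethionine, the methyl donor of the cell, was read by probes that differed at 10 min. Its probes A_44_P118993 and A_43_P15601, 65 bases apart, had folds of 2.98 (3.29 and 2.70) and 2.82 (3.33 and 2.39). Its brightest probe, A_44_P1037609, 2341 bases downstream of the first, had a fold of 1.02 (1.06 and 0.98) at 10 min, then 1.13, 1.97, 2.75 and 3.89 at 15, 30, 60 and 120 min. By the brightest probe Mat2a was therefore not counted. RGD1560523, annotated as similar to this enzyme and placed on another chromosome, had a fold of 3.81 (6.56 and 2.21), with a control well above background only on the array with PACAP38 in Cy3. It shares a run of 34 bases with the first Mat2a probe (capitals), so RNA of these genes cannot be told apart at that probe.
RGD1560523, chr13:16278950-16279009, minus strand: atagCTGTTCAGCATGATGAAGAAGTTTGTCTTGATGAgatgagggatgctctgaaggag
Mat2a A_44_P118993, chr4:105740884-105740943, minus strand: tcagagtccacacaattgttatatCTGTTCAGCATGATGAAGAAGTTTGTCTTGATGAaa

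**Figure D3:**
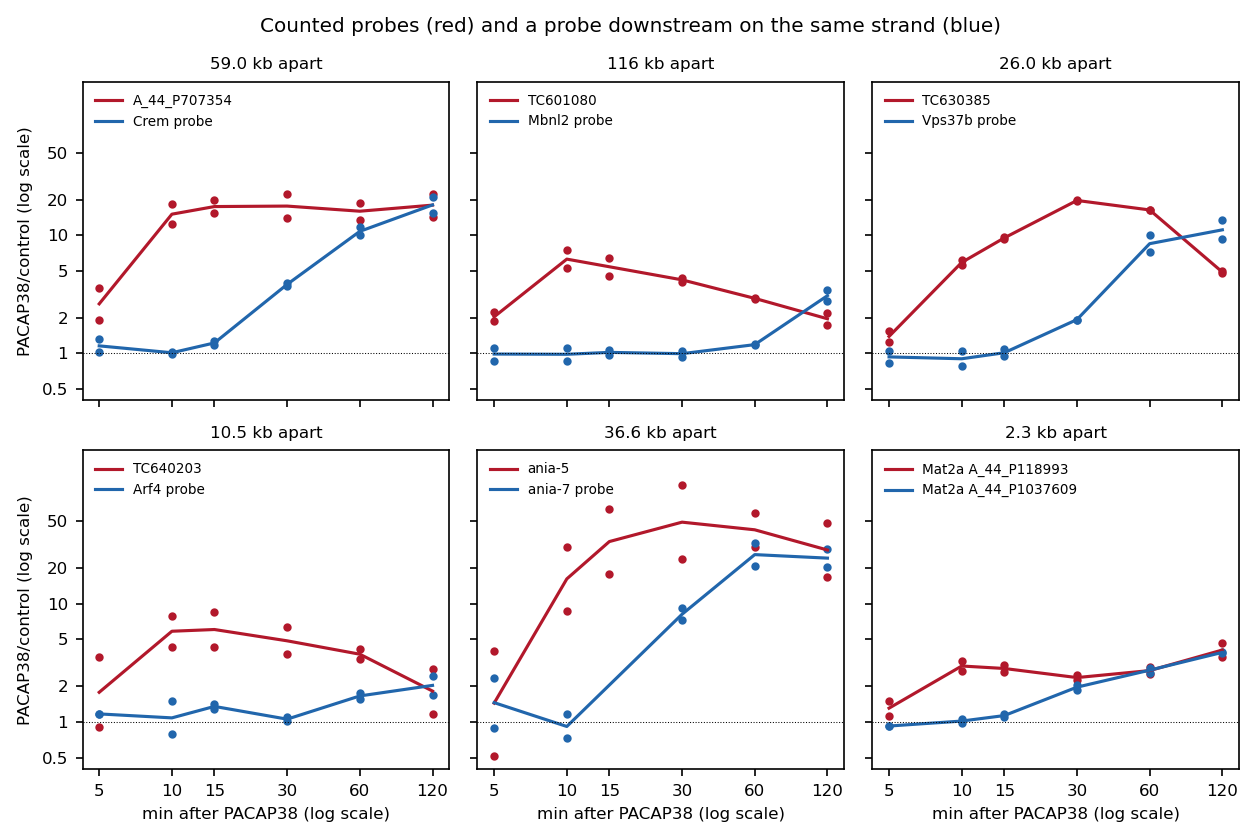
PACAP38/control (y axis, log scale) against min after PACAP38 (x axis, log scale) for 6 counted probes (red) and a probe downstream on the same strand (blue), with the geometric mean as a line and both arrays as points. Times with neither RNA well above background are left out, and the ratios of ania-5 and TC640203 at 10 min are measured ratios against a dim control. The scaled control level of ania-5 was at most 19.0 in Cy5 and 7.93 in Cy3 over the 6 times, so its whole line rests on low control levels. At 10 min each red line lies at 2.98 or above while the blue lines lie between 0.90 and 1.09, and the blue lines are higher at 120 min than at 10 min. The ania-7 probe was not measured at 10 min, with array ratios of 1.16 and 0.73, so its blue value there is uncertain.

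Of the 6 genes downstream, Crem (2 of its 3 promoters in the RefSeq table), Vps37b and Galnt11 hold a full cAMP response element, and Mbnl2, Arf4 and Ergic1 do not, beside 1.83% of all promoters. Dusp1, which is not one of the 6, holds one too. The promoter of the Crem start with 2 elements, at positions -35 and 40, and that of Vps37b, with 1 at -76, are shown with the elements in capitals.
Crem, chr17:58985240-58985539, plus strand: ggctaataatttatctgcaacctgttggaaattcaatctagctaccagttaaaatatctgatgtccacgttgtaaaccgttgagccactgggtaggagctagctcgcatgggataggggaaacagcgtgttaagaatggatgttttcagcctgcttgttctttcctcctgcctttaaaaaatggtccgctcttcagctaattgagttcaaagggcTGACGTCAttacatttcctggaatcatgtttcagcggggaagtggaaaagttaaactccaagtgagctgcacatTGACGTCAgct
Vps37b, chr12:38220723-38221022, plus strand: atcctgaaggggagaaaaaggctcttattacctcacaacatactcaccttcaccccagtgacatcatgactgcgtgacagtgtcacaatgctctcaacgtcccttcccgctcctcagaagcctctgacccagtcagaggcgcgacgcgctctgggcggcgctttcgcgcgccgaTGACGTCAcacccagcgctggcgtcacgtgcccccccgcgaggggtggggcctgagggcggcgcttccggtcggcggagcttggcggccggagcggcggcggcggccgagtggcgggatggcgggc

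At 5 min, on the same slide, 0 probes were counted, a share of 0%. Fos and TC588381 had neither RNA well above background at 5 min and are left out of the ranking that follows. Among the rest of the 27 the largest 5 min fold was that of A_44_P707354, 2.63 (3.58 and 1.92), followed by 2.04 for TC601080 (2.22 and 1.87). At 15 min all 27 were counted again, against 0.0902% of all probes. At 30, 60 and 120 min 24, 26 and 20 of them were counted, against 0.249%, 0.871% and 1.95% of all probes. These later arrays hold other pools, each with its own control. The median fold of the 27 was 4.74, 6.94, 9.38, 7.68 and 4.87 at 10, 15, 30, 60 and 120 min. Klf4 had the largest later fold, 104 at 60 min, and Egr1 was at 60.7 at 30 min and 9.72 at 120 min. Jun was at 9.38 at 30 min and 1.53 at 120 min, whereas Nr4a2 was at 33.8 at 120 min. TC611320 was largest at 10 min in both dye orientations.

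Each time point has a control pool of its own, and these pools were not alike for some of the counted genes. After scaling all arrays together, the control level of Fos in Cy5 was 14.5, 62.2, 159, 274, 309 and 83.1 from the earliest to the latest of the 6 times. At 5 min neither RNA of Fos was well above background, so the 21.4-fold range of these values is not exact. From 10 min on its level ran from 62.2 to 309 in Cy5, where the median range of measured probes over the 6 times was 1.37-fold. In the same dye the control level of Nr4a1 ran from 177 at 5 min to 4954 at 60 min, and that of Nr4a2 from 40.7 to 882. The PACAP38 level of Fos at 10 min, 1266 in Cy5 and 977 in Cy3, was above all 6 control levels of the same dye. The 27 were counted for exceeding the 10 min control, 1 of the 6, so a high share partly follows from the counting rule. Being above all 6 held for 24 of the 27 probes and for 3.08% of measured probes. It did not hold for Nr4a1, Nr4a2 and XM_213050, whose treated levels at 10 min lay within the range of the control pools of other times, in both dyes for Nr4a1 and Nr4a2 and in Cy5 alone for XM_213050. The 10 min folds of these 3 therefore rest on the 10 min control pool, which had the lowest or the next lowest of the 6 levels for each. What set the control pools apart was not tested.

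**Figure D4:**
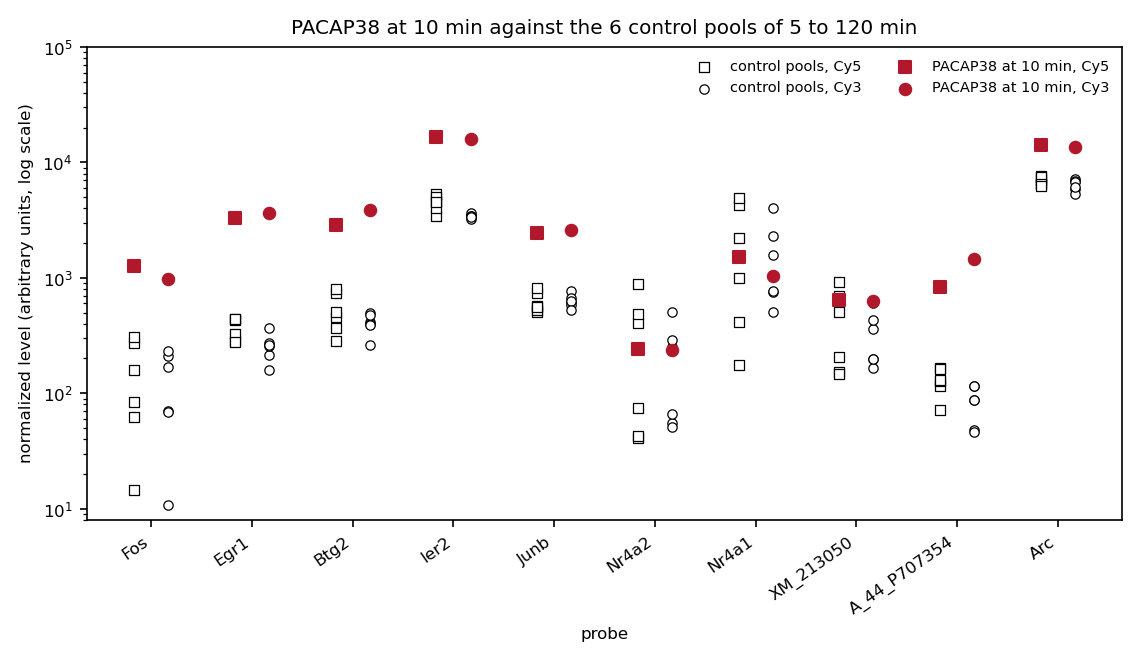
Normalized level (y axis, log scale) of 10 counted probes, with PACAP38 at 10 min in red and the 6 control pools of 5 to 120 min as open symbols, squares for Cy5 and circles for Cy3. Red symbols stand above all open symbols of their dye except for Nr4a2 and Nr4a1 in both dyes and XM_213050 in Cy5.

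Gene lists of the pathway were read by the brightest probe of each gene, with 0.193% of the 12414 measured genes counted as higher at 2-fold and 0.266% at 1.5-fold. AP-1 subunits had 3 of 6 measured members counted, EGR factors and their corepressors 1 of 3, NR4A receptors 2 of 2, Krueppel-like factors 1 of 9, Ier genes 1 of 3, Btg, Tob and Zfp36 genes of mRNA decay 1 of 5, and synaptic activity genes 1 of 3. In every other list 0 members were counted. The lists were chosen with earlier results of these data known, so their shares are no independent support beside that of all genes. With normexp and loess, 0 members of the NR4A, Krueppel-like and synaptic lists were counted, and the other lists named here kept their counts. Of 13 other inducible transcription regulators, Cited2, a CBP-binding coactivator, was the highest at 1.55, and 2 probes of it passed the 1.5-fold limit. Crem, Per1, Nfil3, Csrnp1 and Cebpb, all targets of cAMP or growth signals, had folds of 0.84, 0.82, 1.04, 1.08 and 1.16 at 10 min. The same probes were at 14.8, 5.68, 7.09, 13.4 and 5.53 at 120 min.

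Feedback regulators mostly lay near 1 at this time. Dusp1 was the highest of 8 measured MAP kinase phosphatases and Sprouty-related genes, and Dusp5, Errfi1 and Dusp2 had folds of 1.09, 0.91 and 0.74. Rhob, a small GTPase, was the highest of 7 G protein and cAMP feedback genes at 1.43 (1.59 and 1.28), and Sik1, a CREB pathway kinase, was at 0.89. The 9 measured later response genes, among them Vgf, Odc1 and Mmp13, lay between 0.81 and 1.17, and at 120 min Mmp13 was at 12.1 and Vgf at 3.93. Zfp36l2, which promotes mRNA decay, was at 1.52, and fell just short of 1.5 on the array with PACAP38 in Cy5.

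Genes of the signal itself, of the cytoskeleton and of axon guidance gave no counted member. The receptor Adcyap1r1 was at 1.05 (0.92 and 1.19), Gnaq, a G protein subunit, at 1.03 and Creb1 at 0.93, and the 15 measured genes of the cAMP pathway had a median log2 fold of 0.01. Srf was at 1.00, and the 7 measured genes of its list, Srf included, ran from 0.70 for Myh9 to 1.07 for Actb. CRMP2 (Dpysl2), a tubulin-binding protein of growth cones, was at 1.03 (1.22 and 0.87), and the 12 measured genes of its list had a median log2 fold of 0.04, beside 0.003 over all measured genes. Of 78 genes on the array with symbols of the semaphorin, plexin, neuropilin, ephrin, Eph, Slit, Robo, netrin and Unc5 kind, 25 were measured and 0 were counted in either direction, with folds from 0.68 for Sema3f (1.09 and 0.42) to 1.45 for Sema6a (1.07 and 1.97). The symbols taken include Unc50 and Unc5cl, which are not guidance receptors. Unc5b was 2.54 on one array and 0.45 on the other.

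**Figure D5:**
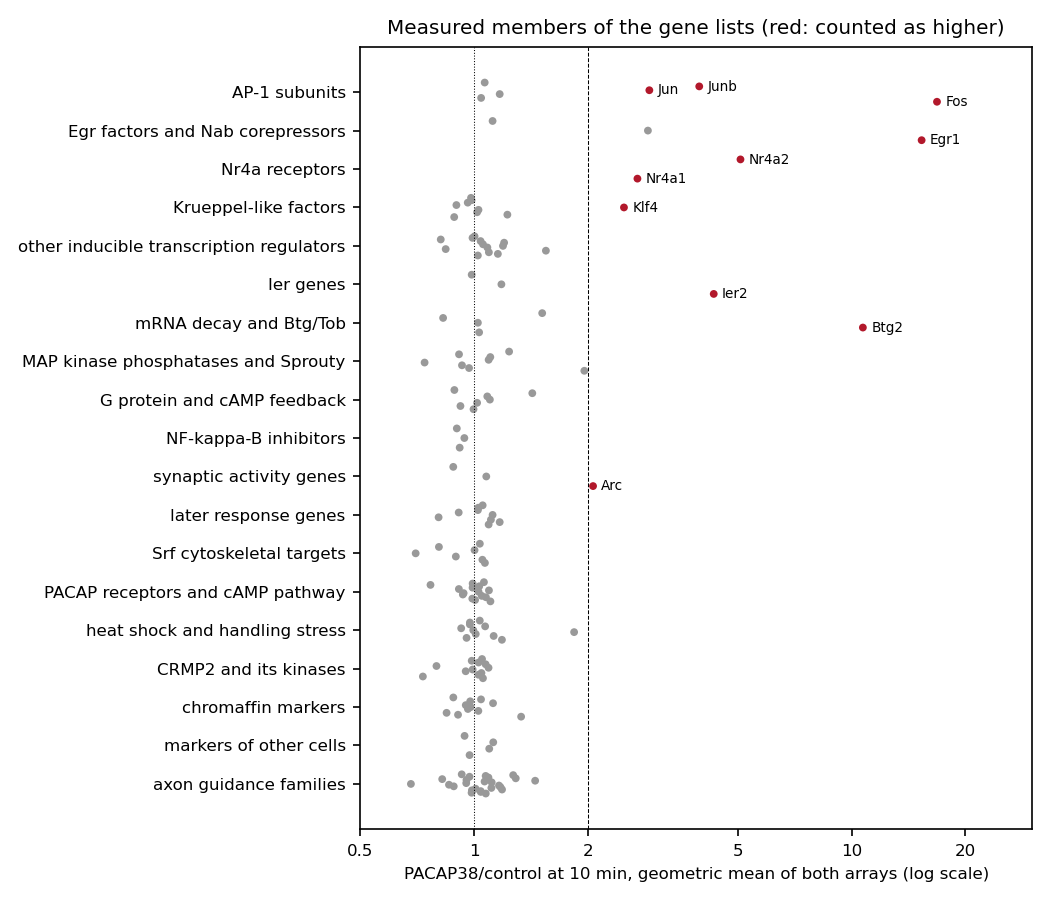
PACAP38/control at 10 min (x axis, log scale, geometric mean of both arrays) of the measured members of each gene list, 1 point a gene by its brightest probe, spread vertically within a list for legibility. Counted genes are red and named, and the dashed line marks 2-fold. All points to the right of it are red except Egr4.

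Of the 11 measured genes of heat shock and handling stress 0 were counted at 2-fold and 1 passed the 1.5-fold limit, beside 0.266% of all measured genes. That gene, Gadd45b, induced by growth and stress signals, was at 1.84 (2.02 and 1.68), and the other 10 measured members of the list, among them Hspa1b, Dnajb1 and Ddit3, lay between 0.92 and 1.19. A probe of Mt1, a metal-binding metallothionein outside the list, was at 2.32 (2.90 and 1.85), and Zfand2a, a proteasome-associated stress protein also outside it, at 2.02 (2.07 and 1.97). Each missed the 2-fold limit on the array with PACAP38 in Cy3.

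By the brightest probe of each gene or transcript, the 10 largest measured ratios that were not counted came mostly from 1 array. TC589845 was at 3.21, and Egr4, Aldh2, Agtr2, LOC103690129, TC601714, NEWGENE_1310139, Carnmt1 and Spa17 followed, down to 2.07. TC627767, with a dim control on both arrays, was at least 1.35-fold higher (measured ratios of 2.32 and 3.61). The probe of Mt1 at 2.32 is not among these because a brighter probe stands for that gene. In all 10 the control RNA was not well above background on the array with PACAP38 in Cy5, and in 8 the other array gave a fold below 1.5. Aldh2, for instance, had 8.31 on one array and 0.79 on the other. Of the named genes among them, only Egr4 was above 2-fold on both.

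No lower probe passed the limits. The smallest measured folds were those of TC603209 (measured ratios of 0.38 and 0.62), Rhox9 at 0.49, Ltk at 0.49, AW918213 at 0.50 and Ms4a8 (measured ratios of 0.50 and 0.53). For TC603209 and Ms4a8 the PACAP38 channel was dim on both arrays, so these are measured ratios and not exact folds. Their spot p-values missed the limit, on the array with PACAP38 in Cy3 for TC603209 and on both arrays for Ms4a8. Rhox9, a homeobox gene, went from 273 to 123 and from 260 to 137, folds of 0.45 and 0.53, but its scaled PACAP38 levels (143 in Cy5 and 155 in Cy3) lay within the 6 control pools' ranges of 69.6 to 291 and 43.6 to 318. AW918213, an expressed sequence, went from 593 to 325 and from 646 to 295. Ltk, a receptor tyrosine kinase, was at 0.98 on one array and 0.24 on the other. A probe of Uba1, the ubiquitin-activating enzyme, passed the 1.5-fold limit at 0.61 (0.58 and 0.65).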

How the data were processed

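RNA of PC12 cells was read on 2-colour Agilent rat arrays with 45018 spots, 43379 of them for rat transcripts. Per the file headers the authors extracted and dye-normalized the scans with Feature Extraction 12.0.3.1, and the submitters' processing notes name 11.0.1.1. The deposited processed intensities are background-subtracted and dye-normalized within each array, and the deposited p-value of each spot's log ratio comes from the same software. The deposited table of log10 ratios holds log10(Cy5/Cy3) of those intensities, not turned by dye. Coordinates are those of the array's annotation (rn4).

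Ratios were turned by dye from rProcessedSignal and gProcessedSignal, spots flagged as outliers were left out, and spots of a probe were averaged on the log2 scale with their median p. A gene's value is that of its brightest probe, and where probes differ it is said. Lower bounds and control levels used intensities after loess and Aquantile (limma 3.58.1, R 4.3.3), per channel and open to dye bias. Where both arrays lacked a signal well above background for 1 RNA, the fold is a bound, taken against the higher of the probe's own signal and the dimmest signal well above background. A bound is a mean over both arrays, so a single array can lie below it. Where the probe's own signal was the higher on both arrays, the bound is no more than the measured ratio, and the ratios are given instead. Symbols were updated through RefSeq (GRCr8), where 24674 of 41012 probes matched by accession or symbol. Gene lengths are not used here because that build is not the array's.

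The named genes are all counted probes, the 10 largest folds not counted, the 5 smallest folds and examples of each list. The members and lists were chosen with earlier results of these data known. Alternatives were other fold and p limits, single arrays, background correction and scaling. The number of arrays limits the precision.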

Additional observations from a re-analysis of the deposited data

Results flagged for a closer look

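Rhox9 and AW918213 differed in direction between time points, which was not tested. Rhox9 was lower with PACAP38 on both arrays at 10 min (0.49) and higher on both at 30 min (2.05) and at 60 min (2.41). AW918213 was lower on both arrays at 10 min (0.50) and higher on both at 120 min (1.69). Each time point has its own pair of pools. At 10 min the scaled PACAP38 levels of Rhox9 (143 in Cy5 and 155 in Cy3) were above the medians of the 6 control pools (117 and 128), and those of AW918213 (371 and 332) lay within the control ranges of 323 to 723 and 311 to 675.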

How the results depend on the processing

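No probe counted as higher had a fold below 1 under any alternative tried. The count of 27 higher and 0 lower probes was 38 and 3 at a 1.5-fold limit, 18 and 0 at 3-fold, 47 and 17 without the p limit, and 26 and 0 at p below 0.001. Each array alone gave 335 to 425 higher and 324 to 407 lower probes. Normexp with an offset of 50 gave 8 higher and 0 lower probes with loess as well as with median centring, all 8 among the 27, and the offset by its construction lowers the ratio of dim probes. Median centring of the processed intensities gave 27 with 26 shared, Mt1 in place of Arc. Keeping flagged spots, requiring signal well above background, or using the deposited log10 table gave the same count of 27, and counting genes gave 24. The count of listed genes was 10, 13 at 1.5-fold and 6 with normexp and loess. Subtracting the 5 min ratio of the same dye left 25 of the 27 folds at 2 or above, but brought Fos to 8.12, though neither RNA of its 5 min pools was well above background, A_44_P707354 to 5.74, TC601080 to 3.08, TC613084 to 2.94, TC640983 to 1.84 and TC611320 to 1.94. No paired analysis was possible because both arrays hold 1 pair of pools. With 1 pair of pools, differences between cultures cannot be told from the treatment, and probes with a control dim on both arrays have bounds only. Folds of probes with a control dim on 1 array are less certain.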
